A study of Mus musculus with 8 samples.

Results

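The genes described here mark B lymphocytes and antibody-secreting cells: Ms4a1, Cd79a, Cd79b, Pax5, Cd22, Blk, Fcer2a, Tnfrsf13c and Igj, the older symbol for the J chain gene. They were chosen by symbol, and all 9 were found among the 23212 gene symbols of the count tables. Perigonadal fat, taken whole, was profiled by RNA-seq in C57BL/6 mice, of which 4 were wild type and 4 carried a knockout of 1 gene restricted to adipocytes. Libraries are numbered by mouse within a genotype. All 8 mice were 20 weeks old, were matched for age and weight, and had eaten a 45% high-fat diet for 12 weeks, from 8 weeks of age. The driver of the knockout is not given in the sources used here, and the targeted gene is not analysed here.

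A B cell recognises antigen through its receptor, a membrane immunoglobulin held together with the signalling pair CD79A and CD79B, whose tails are phosphorylated by Src-family kinases such as BLK. PAX5 is the transcription factor that maintains B cell identity and is shut off when a B cell becomes an antibody-secreting plasma cell, whereas the J chain links IgA and IgM into polymers and is abundant in plasma cells. In visceral fat, B cells lie in the stroma and in lymphoid clusters, and they accumulate in obesity.

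Upstream sequences are shown for 3 genes that stand for the patterns described below: Cd79a, which varied together with other receptor genes, Igj, the gene of antibody-secreting cells, and Cd22, whose order of libraries was its own. They come from RefSeq (build GRCm38.p6), whose promoter table held 6 of the 9 genes; Ms4a1, Cd79b and Blk had no entry. Each run reads 5′ to 3′ on the strand of the gene and ends at the base before the RefSeq start site, and capitals mark a match to a motif of the B lineage factor EBF1, the letters TCCC followed after any 2 bases by GGGA. The Cd79a run is chr7:24897247-24897496 on the plus strand, the Igj run is chr5:88527898-88528147 on the minus strand, and the Cd22 run is chr7:30879029-30879194 on the minus strand. The Cd22 run is shorter, at 166 bases, because the authors' annotation has an exon of Cd22 further upstream. That annotation extends Cd22 to chr7:30880342, so the run and its capitals lie within the gene there.
Cd79a: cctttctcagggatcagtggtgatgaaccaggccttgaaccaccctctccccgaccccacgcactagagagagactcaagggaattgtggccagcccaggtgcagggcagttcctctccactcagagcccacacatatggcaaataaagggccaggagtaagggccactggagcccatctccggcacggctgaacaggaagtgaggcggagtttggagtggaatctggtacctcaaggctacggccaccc
Igj: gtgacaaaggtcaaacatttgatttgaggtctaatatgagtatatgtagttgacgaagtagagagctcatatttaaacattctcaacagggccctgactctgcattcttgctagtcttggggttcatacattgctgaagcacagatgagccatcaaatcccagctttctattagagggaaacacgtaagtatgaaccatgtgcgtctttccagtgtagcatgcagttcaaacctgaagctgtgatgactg
Cd22: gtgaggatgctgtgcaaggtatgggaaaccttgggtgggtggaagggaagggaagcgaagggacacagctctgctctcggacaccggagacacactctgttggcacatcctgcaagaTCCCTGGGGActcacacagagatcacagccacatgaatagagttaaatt
Windows from 250 bases before to 50 bases after the RefSeq start were searched on both strands. The EBF motif was found in Cd22 alone of the 6 genes, 49 bases before its RefSeq start. It was found in 0.904% of all 32851 promoters of that length. The octamer ATGCAAAT, bound by OCT factors, was found in 0 of the 6 genes and in 1.74% of all promoters. GAGGAAGT, a motif of PU.1, was in 0 of the 6 and in 3.20% of all. TATAAA was in Fcer2a alone, 33 bases before the most upstream of its 3 RefSeq starts, and in 13.6% of all. All 3 starts of Fcer2a were searched, whereas each other gene had 1 start. These matches describe letters in the window only, and a binding site that departs from those letters would not be counted.

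In the authors' annotation of mm10, Ms4a1 lies at chr19:11250603-11266151 with 7 exon blocks, Cd79a at chr7:24897511-24902197 with 5, Cd79b at chr11:106311341-106314529 with 6 and Blk at chr14:63372837-63417187 with 13. Cd22 lies at chr7:30865404-30880342 with 17 exon blocks, Fcer2a at chr8:3681737-3694174 with 14 and Tnfrsf13c at chr15:82221744-82224336 with 3. Pax5 lies at chr4:44531506-44710440 with 10 and Igj at chr5:88519809-88527897 with 4. Cd79a is on the plus strand and the other 8 are on the minus strand, and reads over the exons of each gene were summed.

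B cell transcripts were rare in this tissue. The 9 genes together took 0.00211% of all counts, in libraries of 46444435 to 51431956 counts. Levels are given in CPM, with library sizes scaled by TMM. The low-count filter kept 14493 genes, among them 8 of the 9; Fcer2a, at 0 to 29 counts per library, was left out. The 8 tested genes summed to 6.02 to 44.1 CPM per library, and the 6 adipocyte markers Adipoq, Lep, Plin1, Cidec, Fabp4 and Pparg to 25641 to 40379 CPM. Wild-type library 3 and knockout library 2 also held transcripts of ciliated epithelium (Foxj1, named after its values were seen, at 7.97 and 26.1 CPM, and at most 0.287 CPM elsewhere). In whole tissue, fewer cells of a type and less RNA per cell cannot be told apart.

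To compare the genes with each other, CPM was divided by exonic length. Igj was the most abundant, at 5.90 ± 5.86 CPM per kb (SD, n = 8 libraries of both genotypes), followed by Cd79b at 2.34 ± 1.01 and Cd79a at 1.02 ± 0.612 CPM per kb. Ms4a1 was at 0.590 ± 0.418, Cd22 at 0.479 ± 0.264, Pax5 at 0.328 ± 0.155, Blk at 0.284 ± 0.141, Tnfrsf13c at 0.162 ± 0.116 and Fcer2a at 0.0949 ± 0.0910 CPM per kb. On this scale Igj lay above 48.4% of the tested genes, Cd79b above 30.4%, Cd79a above 20.1% and Fcer2a above 1.73%.

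The order and its 8 steps between neighbours were taken from the means of these same libraries, so the steps are described with no test. Cd79b was above its partner Cd79a in 8 of 8 libraries, with a mean log2 ratio of levels per kb of 1.28 (SD 0.53, n = 8, from log2 CPM with a prior count of 2). Cd79a was above Ms4a1 in 8 of 8 (0.78, SD 0.37), and Blk was above Tnfrsf13c in 8 of 8 (0.92, SD 0.75). Tnfrsf13c was above Fcer2a in 6 of 8, at 1 to 34 and 0 to 29 counts per library. The other steps were smaller than their spread: Igj was above Cd79b in 5 of 8 libraries (0.70, SD 1.16), Ms4a1 above Cd22 in 5 of 8 (0.27, SD 1.12), Cd22 above Pax5 in 6 of 8 (0.38, SD 0.74) and Pax5 above Blk in 5 of 8 (0.28, SD 0.66).

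The receptor genes spread widely within each genotype, and wild-type libraries 1 and 4 and knockout library 3 were their highest. Cd79a was at 2.60, 0.647, 0.584 and 1.72 CPM in wild-type mice 1 to 4 and at 1.07, 1.40, 2.36 and 0.491 CPM in knockout mice 1 to 4. Cd79b was at 3.92, 1.22, 2.4 and 4.44 CPM in wild-type mice and at 2.14, 2.22, 4.23 and 1.90 CPM in the knockouts. Ms4a1, which encodes CD20, a surface protein of mature B cells, was at 3.18, 0.804, 0.526 and 1.36 CPM in wild-type mice and at 0.930, 0.947, 1.43 and 0.532 CPM in the knockouts. For each of these genes the same 3 libraries were the highest, and the genotypes overlapped. Blk, a kinase of the receptor, was at 1.28, 0.314, 0.429 and 0.838 CPM in wild-type mice and at 0.455, 0.741, 1.09 and 0.471 CPM in the knockouts, with the same 3 libraries on top and overlapping groups.

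**Figure D1:**
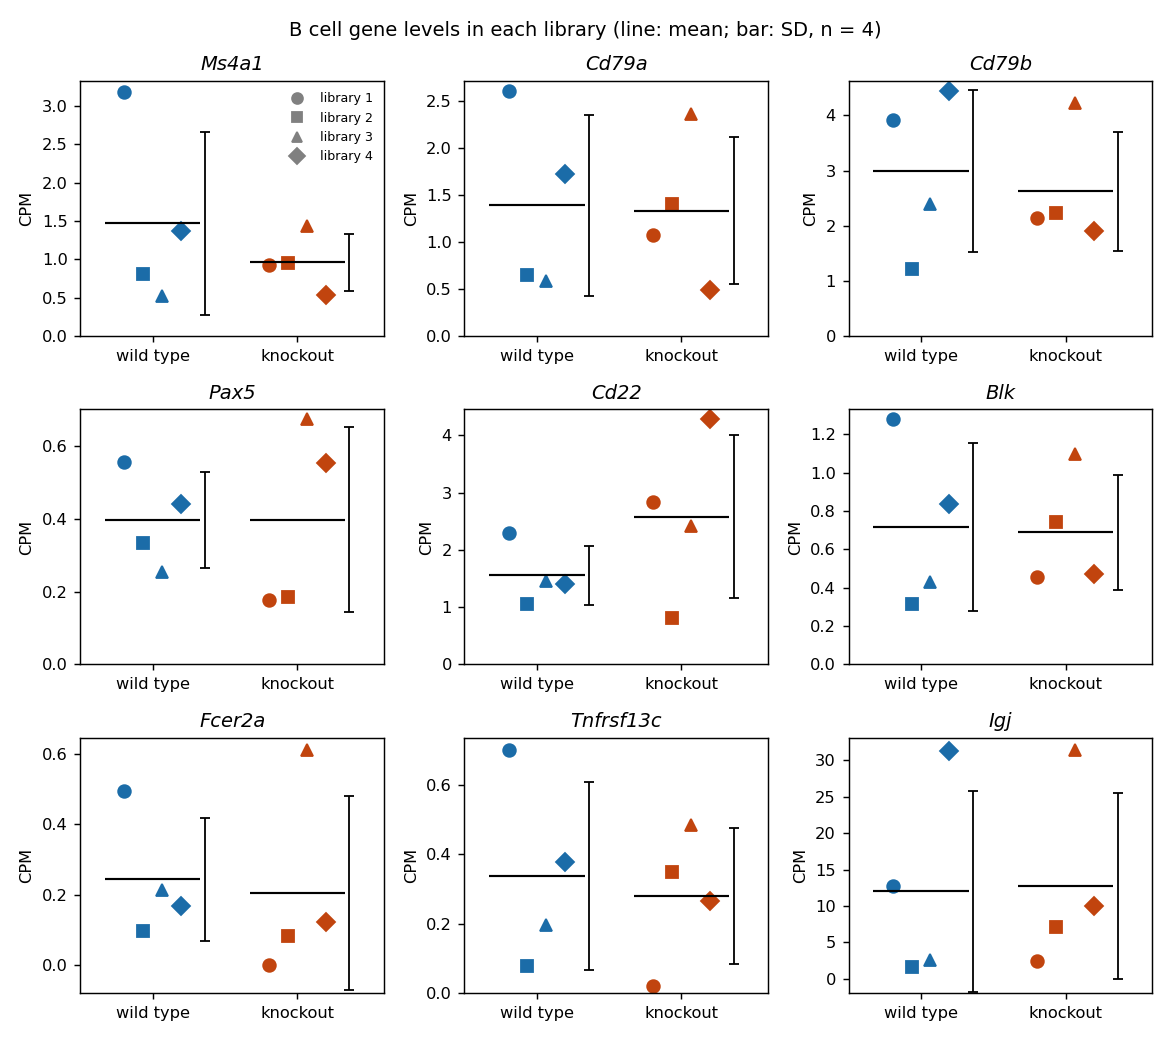
CPM of each B cell gene (vertical axis) in the 4 wild-type and 4 knockout libraries, 1 panel per gene; points are libraries and the bar gives the mean and SD. Wild-type library 1 and knockout library 3 are high in most panels, while Cd22 is highest in knockout library 4, at 4.28 CPM.

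The BAFF receptor, CD23 and the lineage factor were rarer, and their counts limit the precision. Tnfrsf13c, the receptor for the B cell survival factor BAFF, had 34, 4, 10 and 18 counts in wild-type mice 1 to 4 and 1, 17, 23 and 13 counts in knockout libraries 1 to 4. Fcer2a, which encodes CD23, the low-affinity IgE receptor, had 24, 5, 11 and 8 counts in wild type and 0, 4, 29 and 6 counts in knockout. Pax5 had 27, 17, 13 and 21 counts in wild type and 9, 9, 32 and 27 counts in knockout. Wild-type library 1 and knockout library 3 were the 2 highest libraries for all 3 genes, and the genotypes overlapped. The 0 counts of Fcer2a in knockout library 1 allow a level of up to 0.0594 CPM (3 counts, which covers counting error only). The coefficient of variation over the 8 libraries was 71.6% for Tnfrsf13c, 95.9% for Fcer2a and 47.2% for Pax5. Counting alone would give 25.8%, 30.3% and 22.7% at their mean counts.

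Igj had the highest coefficient of variation of the 9 genes. It was at 12.7, 1.57, 2.59 and 31.3 CPM in wild-type mice 1 to 4 and at 2.45, 7.16, 31.4 and 9.99 CPM in knockout mice 1 to 4. Its highest libraries were wild-type 4 and knockout 3, at nearly the same level, and the genotypes overlapped. The highest library was 20.0-fold the lowest, and the coefficient of variation was 99.4%, against 4.09% from counting alone.

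The ratio of Igj to Cd79a, both in CPM per kb, sets the antibody-secreting gene beside a gene of the receptor. It was 3.09, 1.53, 2.80 and 11.5 in wild-type libraries 1 to 4 and 1.45, 3.23, 8.40 and 12.8 in knockout libraries 1 to 4. Knockout library 4 had the highest ratio and the lowest Cd79a of the 8. The ratio of Cd79b to Cd79a ran only from 1.67 to 4.54, with a median of 2.15.

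Cd22, an inhibitory co-receptor that binds sialic acid, had another order of libraries. It was at 2.29, 1.06, 1.46 and 1.40 CPM in wild-type mice 1 to 4 and at 2.83, 0.803, 2.42 and 4.28 CPM in knockout mice 1 to 4. Knockout library 4 was the highest for Cd22, the lowest for Cd79a and next to the lowest for Ms4a1, and the genotypes overlapped. The ratio of Cd22 to Cd79a, in CPM per kb, was 2.68 in knockout library 4 and 0.176 to 0.815 in the other 7 libraries.

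Macrophage and T cell markers were also highest in knockout library 4. The 7 markers Emr1, Cd68, Csf1r, Lyz2, Mrc1, Fcgr1 and Mertk summed to 331, 366, 914 and 723 CPM in wild-type mice 1 to 4 and to 931, 399, 490 and 1492 CPM in knockout mice 1 to 4. Over the 8 libraries, log2 CPM of Cd22 and the mean log2 CPM of these markers had a Pearson r of 0.53 (exact permutation p = 0.180, adjusted p = 0.630) and a Spearman rho of 0.55 (exact permutation p = 0.171, adjusted p = 0.513). Without wild-type library 1 and knockout library 4, r was 0.54. With T cell markers Cd22 had r = 0.59 (exact permutation p = 0.124, adjusted p = 0.630) and rho = 0.43 (exact permutation p = 0.299, adjusted p = 0.513). That r was -0.02 without wild-type library 2 and knockout library 4. Those were the lowest and the highest for the T cell markers, so leaving them out also narrows the range. With adipocyte markers Cd22 had r = 0.57 (exact permutation p = 0.139, adjusted p = 0.630) and rho = 0.43 (exact permutation p = 0.299, adjusted p = 0.513), and r was 0.25 without wild-type library 1 and knockout library 2. None of these relations passed, and the part of other cell types in the Cd22 level was not tested.

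**Figure D2:**
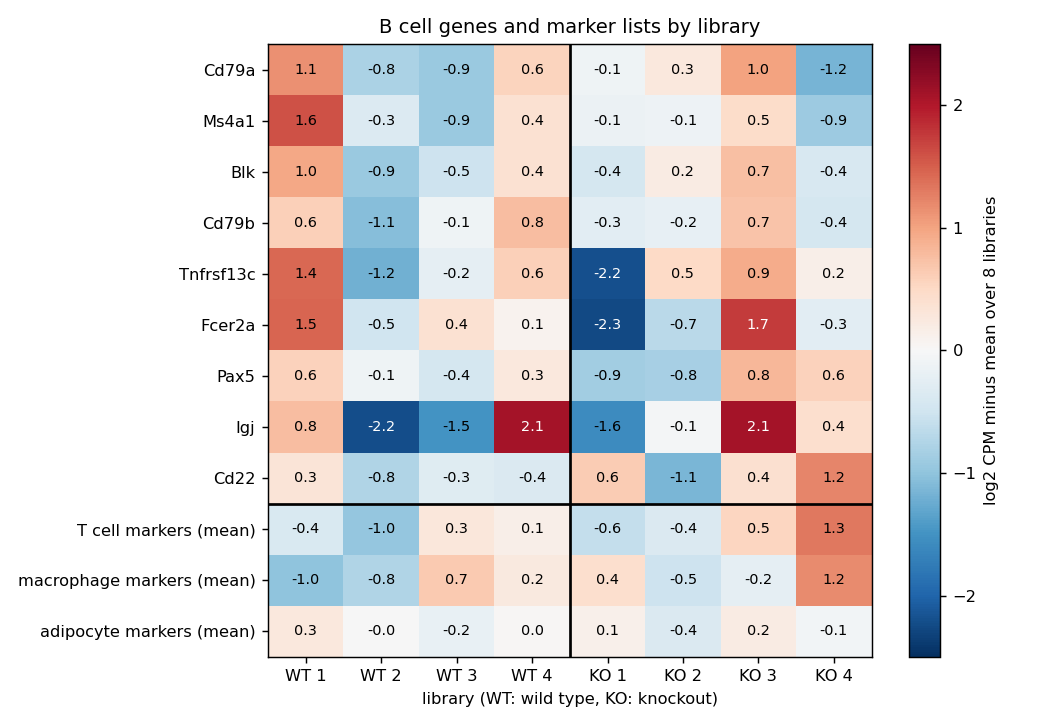
Log2 CPM of each B cell gene and mean log2 CPM of marker lists (vertical) in each library (horizontal), as the difference from the mean over the 8 libraries. Cd22 is highest in knockout library 4, where the macrophage markers are also highest, while Cd79a is lowest there.

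Over the 36 pairs of the 9 genes, log2 CPM was positively correlated across the 8 libraries in 34, with a median Pearson r of 0.61 and a range from -0.07 to 0.92. After adjustment over the 36 pairs, 3 passed by Pearson and 2 by Spearman. Ms4a1 and Cd79a passed by both, with r = 0.91 (exact permutation p = 0.000446, adjusted p = 0.0161) and rho = 0.98 (exact permutation p = 0.000397, adjusted p = 0.0143). Without wild-type libraries 1 and 3, r was 0.95. Cd79a and Blk had r = 0.92 (exact permutation p = 0.00288, adjusted p = 0.0494) and rho = 0.83 (exact permutation p = 0.0154, adjusted p = 0.0791), and r was 0.94 without wild-type library 1 and knockout library 4. Cd79b and Blk had r = 0.89 (exact permutation p = 0.00412, adjusted p = 0.0494) and rho = 0.74 (exact permutation p = 0.0458, adjusted p = 0.11), and r was 0.88 without wild-type libraries 2 and 4. Blk and Tnfrsf13c had rho = 0.93 (exact permutation p = 0.00223, adjusted p = 0.0402) and r = 0.82 (exact permutation p = 0.0109, adjusted p = 0.0610), and r was 0.68 without wild-type library 1 and knockout library 3.

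The 28 pairs without Cd22 had r from 0.33 to 0.92, with a median of 0.67. The 8 pairs with Cd22 had r from -0.07 to 0.48, with a median of 0.08, and 0 of them passed (smallest exact permutation adjusted p = 0.303). The difference between these sets of pairs was not tested. Igj had its highest r with Cd79b, 0.85 (exact permutation p = 0.0119, adjusted p = 0.0610), with rho = 0.81 (exact permutation p = 0.0218, adjusted p = 0.0980) and r = 0.69 without wild-type libraries 2 and 4. The labels give no sequencing batch, so these relations could not be recomputed within batches. All pairs share the same 8 libraries and their scaling.

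**Figure D3:**
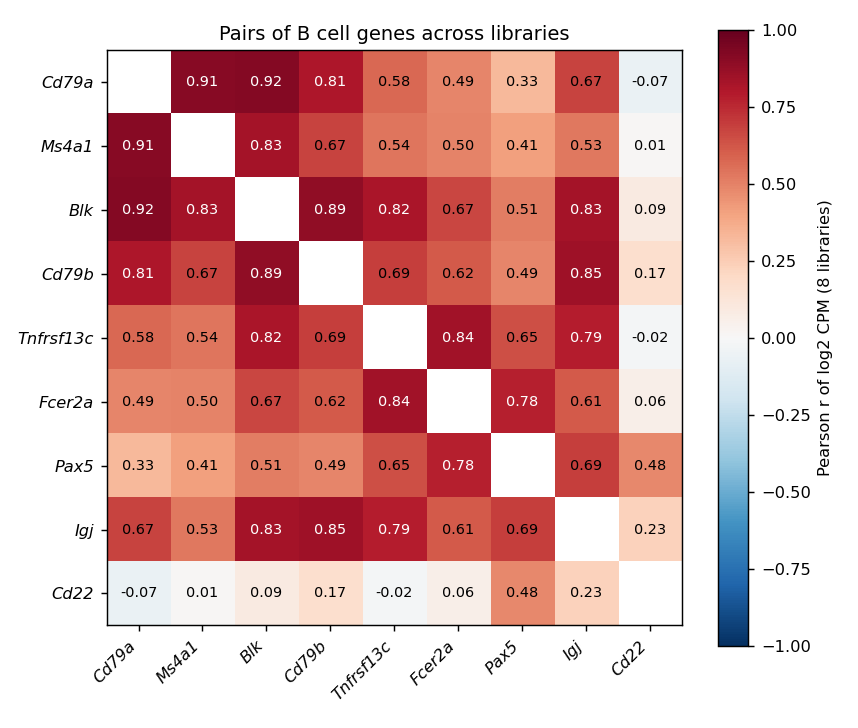
Pearson r of log2 CPM over the 8 libraries for each pair of B cell genes, which label both axes. Pairs with Cd22 lie between -0.07 and 0.48, and the other pairs between 0.33 and 0.92.

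The 9 genes were also set beside the mean log2 CPM of T cell, macrophage, adipocyte and plasmacytoid dendritic cell markers. Of these 36 relations 0 passed, the smallest exact permutation adjusted p being 0.630 by Pearson and 0.499 by Spearman. Ms4a1 had r = -0.71 with plasmacytoid dendritic cell markers (exact permutation p = 0.0438, adjusted p = 0.630), rho = -0.74 (exact permutation p = 0.0458, adjusted p = 0.499) and r = -0.90 without wild-type libraries 1 and 2. The tested markers of that list were Siglech, Tcf4, Cd209d, Pacsin1 and Cox6a2. Pacsin1 was highest in knockout library 2, which also held transcripts of ciliated epithelium. The part of other cell types in the values of that list was not tested. With macrophage markers Ms4a1 had r = -0.70 (exact permutation p = 0.0483, adjusted p = 0.630) and rho = -0.67 (exact permutation p = 0.0831, adjusted p = 0.499). That r was -0.26 without wild-type library 1 and knockout library 4. Those were the lowest and the highest for the macrophage markers, so leaving them out also narrows the range. The 10 tested T cell markers summed to 6.71 to 14.3 CPM in wild-type mice and to 9.90 to 29.1 CPM in the knockouts, and were highest in knockout library 4, where Cd79a was lowest.

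The design asks which transcripts of fat differ between the genotypes in mice on a high-fat diet, and no difference in a B cell gene passed. In the edgeR quasi-likelihood test with Benjamini-Hochberg adjustment over all genes, 0 of the 8 tested B cell genes passed an adjusted p of 0.05, beside 0.0138% of all tested genes (2 of 14493). At an unadjusted p under 0.05 there were 0 of the 8, beside 2.23% of all, and limma voom called 0 of the 8. DESeq2 called 0 of the 5 for which it gave an adjusted p; it gave none for Pax5, Blk and Tnfrsf13c. In 0 of the 9 genes were the groups apart without overlap, beside 1.44% of all tested genes. Of the 8 log2 fold changes of knockout over wild type, 3 were above 0 and 5 below, with a median of -0.05. Over all tested genes 53.1% were above 0, with a median of 0.01.

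Among the receptor genes, Ms4a1 was at 1.47 ± 1.19 CPM in wild-type mice and 0.960 ± 0.368 CPM in the knockouts (SD, n = 4 each), for a log2 fold change of -0.61 (SE 0.57, 95% interval -1.89 to 0.67, edgeR adjusted p = 1.00). Without wild-type library 1 that log2 fold change was 0.10. Cd79a was at 1.39 ± 0.961 and 1.33 ± 0.782 CPM, a log2 fold change of -0.06 (interval -1.43 to 1.30). Cd79b was at 2.99 ± 1.47 and 2.62 ± 1.08 CPM, a log2 fold change of -0.19 (interval -1.16 to 0.78). Blk was at 0.715 ± 0.438 and 0.690 ± 0.300 CPM, a log2 fold change of -0.05 (interval -1.20 to 1.1). Leaving out single libraries turned the sign of all of these, as given in the closing section.

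Cd22 had the largest log2 fold change of the 8 in size. It was at 1.55 ± 0.522 CPM in wild-type mice and 2.58 ± 1.43 CPM in the knockouts, a log2 fold change of 0.73 (SE 0.47, interval -0.34 to 1.80, unadjusted p = 0.155 and adjusted p = 1.00 in edgeR). The log2 fold change was 0.37 without knockout library 4. Without knockout library 2 it was 1.03 (unadjusted p = 0.0137 and adjusted p = 0.996 in edgeR), and without both libraries that held ciliated transcripts it was 1.01 (unadjusted p = 0.0315 and adjusted p = 0.870 in edgeR). Over all genes, an unadjusted edgeR p under 0.05 was reached by 579 of 14582 without knockout library 2. Without both libraries that number was 805 of 14434, and with all 8 libraries it was 323 of 14493.

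Intervals were also wide for the other genes. Pax5 was at 0.396 ± 0.132 CPM in wild-type mice and 0.397 ± 0.254 CPM in the knockouts, a log2 fold change of 0.01 (interval -1.18 to 1.19). Tnfrsf13c was at 0.338 ± 0.272 and 0.280 ± 0.195 CPM, a log2 fold change of -0.27 (interval -2.13 to 1.59). Igj was at 12 ± 13.8 and 12.7 ± 12.8 CPM, a log2 fold change of 0.08 (interval -2.16 to 2.33). The intervals of Pax5, Tnfrsf13c and Igj, and those of Cd79a and Blk given above, each include a change of 1 log2 unit in either direction. Fcer2a was at 0.244 ± 0.174 and 0.204 ± 0.276 CPM, and with no low-count filter its log2 fold change was -0.26 (edgeR adjusted p = 1.00).

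**Figure D4:**
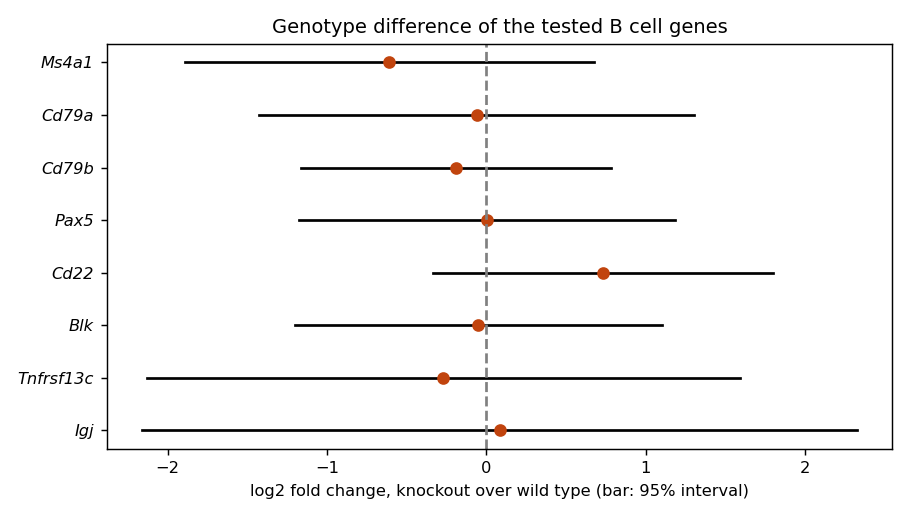
Log2 fold change of knockout over wild type (horizontal axis) for the tested B cell genes, with the 95% interval of the edgeR quasi-likelihood fit. Every interval crosses 0, from the narrowest, for Cd79b (-1.16 to 0.78), to the widest, for Igj (-2.16 to 2.33).

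The wider B lineage was read from 8 further lists, in which 83 of 98 genes were tested. Of the 83, 54 log2 fold changes were above 0 and 29 below, with a median of 0.14, and 0 passed. At an unadjusted p under 0.05 there were 2 (2.41%, beside 2.23% of all genes). They were Prkcb, a kinase of the receptor pathway, and Bcl6, a transcription factor of germinal centre B cells. Prkcb was at 7.57 ± 2.86 CPM in wild-type mice and 14 ± 7.0 CPM in the knockouts, a log2 fold change of 0.89 (SE 0.37, edgeR adjusted p = 1.00). Bcl6 was at 44.8 ± 12 and 32.3 ± 6.61 CPM, a log2 fold change of -0.47 (SE 0.21, edgeR adjusted p = 1.00).

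Genes of B cell receptor signalling had 17 of 17 log2 fold changes above 0, with a median of 0.53, and 0 passed. Markers of other immune cells lay the same way: T cell markers had 10 of 10 above 0 (median 0.57) and macrophage markers 6 of 7 (median 0.62), and 0 passed in either list. The mean log2 CPM of the signalling genes was 3.26, 3.26, 4.36 and 3.87 in wild-type libraries 1 to 4 and 4.31, 3.55, 3.70 and 4.88 in knockout libraries 1 to 4. That of the macrophage markers was 4.46, 4.71, 6.13 and 5.71 in the former and 5.89, 4.95, 5.25 and 6.65 in the latter. Both means put the 8 libraries in the same order, from knockout 4, the highest, to wild-type 1, the lowest. Syk, the kinase recruited to CD79A and CD79B, named after its values were seen, was at 20.0, 19.2, 53.0 and 35.7 CPM in wild-type mice 1 to 4 and at 55.1, 19.8, 34.7 and 83.1 CPM in knockout mice 1 to 4. Its 3 highest libraries, knockout 4 and 1 and wild-type 3, were also the 3 highest for the summed macrophage markers given above, and its 3 lowest were the 3 lowest for them. Blnk, the adaptor downstream of SYK, named likewise, was at 4.25 to 16.7 CPM in wild-type mice and at 5.77 to 35.1 CPM in the knockouts. Macrophages also express Syk and Blnk, and the part of other immune cells in the values of this list was not tested. The most abundant genes of the list were Cd81, a tetraspanin, Fcgr2b, the inhibitory Fc receptor, and Bcl10, at 283, 17.2 and 16.3 CPM per kb. Cd81 shares exonic bases with another symbol, and its value is uncertain to that extent.

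Other surface and identity genes of B cells had 13 of 18 log2 fold changes above 0, with a median of 0.13, and 0 passed. Cd72, an inhibitory co-receptor whose exons overlap those of Tesk1, was at 1.59 ± 0.930 and 3.82 ± 3.65 CPM, a log2 fold change of 1.26 (SE 0.66). Siglecg, an inhibitory Siglec like Cd22, was at 0.899 ± 0.305 and 0.632 ± 0.142 CPM, a log2 fold change of -0.50 (SE 0.34). Cd37, Cd24a and Cd83 were the most abundant, at 11.3, 6.20 and 5.95 CPM per kb. Cd72, Cd37 and Cd83 were highest in knockout library 4, at 9.23, 27.7 and 26.3 CPM. The macrophage markers were also highest there, and Cd79a was lowest. Cd24a was highest, at 27.0 CPM, in knockout library 2, which also held transcripts of ciliated epithelium. The part of other cell types in the values of this list was not tested.

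B cell transcription factors had 8 of 12 log2 fold changes above 0, with a median of 0.18, and 0 passed. Foxo1, Ebf1 and Sfpi1 were the most abundant, at 28.9, 24.8 and 13 CPM per kb; adipocytes also express Foxo1 and Ebf1, and Sfpi1 encodes PU.1, which macrophages also express. Ebf1 was at 62.2 ± 11.9 and 49.3 ± 6.94 CPM, a log2 fold change of -0.33 (SE 0.15). Tcf3, which encodes the E2A proteins, was at 35.6 ± 2.90 and 40.5 ± 2.74 CPM, a log2 fold change of 0.19 (SE 0.092). Pou2af1, a B cell co-activator of OCT factors named after its values were seen, was at 2.15, 0.353, 0.935 and 1.65 CPM in wild-type mice and at 0.653, 0.967, 2.38 and 0.634 CPM in the knockouts. Its 3 highest libraries were those of Cd79a. Not all genes of the list had that order: Pou2f2, named likewise, was highest in knockout library 4, at 1.56 CPM, and lowest in knockout library 3, at 0.295 CPM.

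The BAFF and APRIL system had 2 of 9 log2 fold changes above 0, with a median of -0.05, and 0 passed. Tnfsf13b, which encodes BAFF, named after its values were seen, was at 3.03 ± 0.690 CPM in wild-type mice and 2.97 ± 0.888 CPM in the knockouts. Across the 8 libraries it ran from 2.08 to 4.13 CPM, against 0.0198 to 0.701 CPM for its receptor gene Tnfrsf13c. Nfkb2, Relb and Traf2, of the non-canonical NF-kappaB pathway, were the most abundant, at 11.4, 10.6 and 6.43 CPM per kb, with log2 fold changes of -0.11, -0.05 and 0.08. Traf3, a brake on that pathway, had -0.08 (SE 0.15).

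Antibody-secreting cell genes had 6 of 13 log2 fold changes above 0, with a median of -0.01, and 0 passed. Xbp1, a factor of the secretory programme, Ssr4 and Txndc5 were the most abundant, at 143, 96.0 and 60.7 CPM per kb, and many secretory cells express them. Prdm1, the factor that drives plasma cell differentiation, was at 2.20 ± 0.605 and 3.05 ± 0.243 CPM, a log2 fold change of 0.47 (SE 0.24). Fcamr, a receptor for IgA and IgM, was at 1.14 ± 0.872 and 0.819 ± 0.202 CPM, a log2 fold change of -0.47 (SE 0.54). Tnfrsf17, the plasma cell receptor BCMA, named after its values were seen, was at 0.186, 0.196, 0.916 and 1.38 CPM in wild-type mice and at 0.574, 0.329, 0.505 and 0.880 CPM in the knockouts. Wild-type library 4 was its highest, whereas knockout library 3, the highest for Igj, was in the middle of its order. Mzb1 and the immunoglobulin heavy and light chain genes were not analysed here.

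Germinal centre genes had 3 of 6 log2 fold changes above 0, with a median of 0.01, and 0 passed. Fas, Bcl6 and S1pr2 were the most abundant, at 23.9, 11.7 and 3.41 CPM per kb. Of 7 genes of early B lineage cells, Il7r and Cd93 were tested, both with log2 fold changes above 0 (1.57, SE 0.76, and 0.17, SE 0.20), and neither passed. They were at 3.31 and 17.7 CPM per kb, beside 0.205 CPM per kb for Vpreb1, the next of the list. Knockout libraries 4 and 1 and wild-type library 3 were the highest for Il7r, as for the summed macrophage markers. The part of other cell types in the values of Il7r and Cd93 was not tested. Rag1 and Rag2, which recombine antigen receptor genes, named after their values were seen, had 0 counts in every library, which allows at most 0.0584 to 0.0632 CPM, depending on the library.

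Genes of lymphoid homing and lymphoid tissue had 3 of 7 log2 fold changes above 0, with a median of -0.06, and 0 passed. Cxcl13, the chemokine that draws B cells into follicles, was at 6.75, 1.29, 0.565 and 1.72 CPM in wild-type mice 1 to 4 and at 1.76, 1.93, 8.08 and 0.716 CPM in knockout mice 1 to 4 (log2 fold change 0.28, SE 0.89). Its highest library in each genotype, wild-type 1 and knockout 3, was also the highest of that genotype for Cd79a and Ms4a1. Its receptor gene Cxcr5, named after its values were seen, was at 1.24, 0.314, 0.214 and 0.796 CPM in wild-type mice and at 0.297, 0.556, 1.03 and 0.450 CPM in the knockouts. Cxcr5 was thus highest in the same 3 libraries as Cd79a. Ltbr and Il7 were the other abundant genes of the list, at 63.1 and 2.47 CPM per kb. Ltb, which encodes lymphotoxin beta, had a log2 fold change of 0.53 (SE 0.42). It had another order of libraries than Cxcr5 and was highest in knockout library 4, at a log2 CPM of 1.76.

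Outside the lists, the 10 tested genes at a mean of 1 CPM or more whose log2 CPM was most like the mean of the 5 tested surface genes (Ms4a1, Cd79a, Cd79b, Cd22 and Tnfrsf13c), by Pearson r over the 8 libraries, were Zfp68, Rlim, Actr8, Zkscan1, March6, 1700034H14Rik, Cbr1, Smarca2, Dcaf8 and Zfp809. Their r ran from 0.93 to 0.95, among 12806 genes compared, of which 37 had an r above 0.9. They varied far less than the B cell genes: Zfp68 was at 28.9 to 42.3 CPM and Rlim at 69.9 to 84.0 CPM, whereas Cd79a ran from 0.491 to 2.60 CPM. These r are a description, since they were picked as the highest of many.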

How the data were processed

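Whole perigonadal fat of 8 mice was measured by RNA-seq, 4 mice per genotype by the labels. The authors deposited whole-number counts of reads per gene symbol, 1 table per mouse, with no normalization visible in the values. Per the submitters' processing notes, FastQC 0.11.2, STAR 2.4.0g1, featureCounts, Cufflinks, edgeR and mm10 were used; their roles and the strand setting are not stated there. Gene positions and exonic lengths were read from the annotation the authors deposited, where the 9 B cell genes share no exonic base with another symbol.

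Low counts were filtered with filterByExpr and the remaining genes scaled by TMM and compared in edgeR 4.0.16 under R 4.3.3 by the robust quasi-likelihood F test without covariates, with Benjamini-Hochberg adjustment over all 14493 genes and a threshold of 0.05. SEs and 95% intervals are those the F statistic implies, and log2 CPM used a prior count of 2. Correlations used exact permutation tests in Python 3.11.15. Libraries left out of an r were those farthest from the median of the marker mean, or of 1 gene of the pair. Libraries held 46444435 to 51431956 counts, and no pair within a genotype agreed within sampling noise (smallest chi-square per degree of freedom 63.0). Replicate numbers were not treated as pairs, since the labels state no pairing. The fit was tested on simulated data. The alternatives tried were scaling by total counts or by median-ratio size factors, no filter, 1 CPM in 4 libraries, DESeq2 1.42.0, voom in limma 3.58.1, the replicate block, each library left out, and both libraries with ciliated transcripts left out.

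The B cell genes and the lists were chosen with earlier results of these data known. Genes named from a list are the 3 most abundant per kb and the tested gene with the smallest p in each direction, and any other is marked as named after its values were seen. Results for the targeted gene and for some listed genes are not reported here.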

Additional observations from a re-analysis of the deposited data

Results flagged for a closer look

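In 52 groups of 4 libraries checked, 1 library stood far from its group in 2, and chance gives about 2.6 such groups (1 in 20). Cd79b reached 4.23 CPM in knockout library 3, beside 1.90 to 2.22 CPM for the rest of the knockouts. Wild-type library 2 had a mean log2 CPM of 1.84 over the B cell transcription factors, beside 2.57 to 2.65 for the rest of the wild-type mice.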

How the results depend on the processing

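The number of B cell genes past the threshold was 0 in every alternative run, and so was that of the wider B lineage lists; DESeq2 gave no adjusted p for 3 of the 8 B cell genes and 23 of the 83 list genes. Leaving out each library in turn moved the log2 fold change of Ms4a1 between -0.89 and 0.10 (above 0 without wild-type library 1), Cd79a between -0.49 and 0.44, Cd79b between -0.52 and 0.0702, Pax5 between -0.37 and 0.25, Blk between -0.36 and 0.39, Tnfrsf13c between -0.67 and 0.37, Igj between -0.88 and 1.19 and Fcer2a, where it was tested, between -0.52 and 0.16. Cd22 was above 0 in every alternative run, from 0.37 to 1.03 with a library left out. The median over the tested B cell genes ran from -0.51, without knockout library 3, to 0.29, without wild-type library 1. With no filter Pax5 was at -0.0012. With limma voom Cd79a was at 0.0201, Pax5 at -0.18 and Blk at 0.0714. Without both libraries with ciliated transcripts Igj was at -0.0582. With the replicate block Pax5 was at -0.15 and Blk at 0.0600. Deviations of same-numbered libraries had correlations of 0.12, -0.02, -0.32 and -0.02, which give no sign of pairing but cannot exclude it. Over all genes 2 passed; there were 17 with DESeq2 (8 higher, 9 lower) and 0 with total counts, no filter, limma voom, the replicate block, any single library left out (0 to 0) or both libraries with ciliated transcripts left out. The cause was not tested. At 1 CPM in 4 libraries 4 B cell genes were left to test. Depth limits Fcer2a, Tnfrsf13c and Pax5, at 34 counts or fewer in every library.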
